A study of Mus musculus with 8 samples.

Results

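The clustered protocadherins were examined in RNA-seq libraries of mouse embryonic stem cells (mESCs) that carry or lack the nuclear transport receptor Importin-13 (IPO13). Members were all gene symbols that name an alpha, beta or gamma clustered protocadherin, and 59 of the 23420 symbols in the count tables qualified. The alpha cluster gave 15 of them, the beta cluster 22 and the gamma cluster 22, the latter divided into 12 A-type, 7 B-type and 3 C-type genes. The cells were IPO13+/+ (wild type) or IPO13-/- (knockout) mESCs of a 129 x C57BL/6 background that came from blastocysts and were kept without feeder cells in medium with LIF. Each genotype was either left untreated or exposed to 125 µM H2O2 for 1 h and given 2 h of recovery, termed stress below. The 4 groups had 2 libraries each, 8 in all, and it is not stated if these came from separate cultures or how many lines stand behind a genotype, so p-values measure only the spread between these libraries.

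Clustered protocadherins are cadherin-like cell surface proteins encoded in 3 adjoining gene arrays. In neurons, each cell uses a small, largely random set of their promoters, and the proteins pair with identical proteins on other membranes, which lets a neuron recognise its own branches and avoid them. In the alpha and gamma clusters a single variable exon is spliced to constant exons that all isoforms share, whereas each beta gene is a gene of its own with no constant exons. Promoter use depends on the DNA-binding protein CTCF and on cohesin, and silent promoters carry DNA methylation. The C-type genes differ from the others in that many neurons use them regardless of the random choice.

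In the GENCODE M21 annotation of GRCm38, the assembly also called mm10, the genes lay on the plus strand of chromosome 18. Annotated alpha genes lay between positions 36930184 and 37187661, beta genes between 37264938 and 37524479, and gamma genes between 37661793 and 37841873. Of the 59 symbols, 56 matched a single annotated gene, and Pcdha4-g, Pcdha10 and Pcdha11 did not. Most annotated alpha genes shared 2860 exonic bases with other members, and most gamma genes shared 2119. A read from such bases cannot be given to a single isoform, and how the counting treated it is not given in the sources used here. The sharing was measured as the percent of windows of 100 bases that occur in another member as well, which came to between 47.7% and 56.6% per gene in the alpha cluster and between 25.9% and 62.7% in the gamma cluster. Beta genes are nearly free of it, with a median of 0.207% and a highest value of 7.73% in Pcdhb21, so counts of beta genes stand for single genes more cleanly than those of the other clusters.

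Between 60397877 and 73789079 reads per library were counted on genes, and the smallest level told from 0, taken as 3 counts in a library, lay between 0.0407 and 0.0497 CPM (counts scaled to the library total), which covers counting error only. Levels below are CPM after scaling with TMM factors. Ipo13, the targeted gene, had a level of 69.3 ± 1.39 CPM (SD, n = 2) in untreated IPO13+/+ cells and 25.5 ± 0.636 CPM in untreated IPO13-/- cells, and of 70.9 ± 2.20 and 25.4 ± 0.753 CPM after stress. The stem cell markers were high in every library, led by Dppa5a, Pou5f1 and Esrrb. Their sum over 12 genes was 7580 to 7910 CPM in IPO13+/+ and 6680 to 6920 CPM in IPO13-/- libraries, which do not overlap.

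The mESCs held RNA of the gamma cluster and very little of the other clusters. Over all 8 libraries, the gamma genes gathered 8848 counts, the alpha genes 137 and the beta genes 202. Gamma genes therefore made up between 94.9% and 98.2% of the members' counts in a library. All 22 gamma genes had a count in each of the 8 libraries, against 1 of 15 alpha genes and 3 of 22 beta genes. No count at all was found for Pcdha4, Pcdha4-g, Pcdha11 and Pcdhb13, which leaves 55 members for the tests. A count of 10 in each library of some group was reached by 20 members, of which 19 were gamma genes and 1, Pcdhac2, was an alpha gene.

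**Figure D1:**
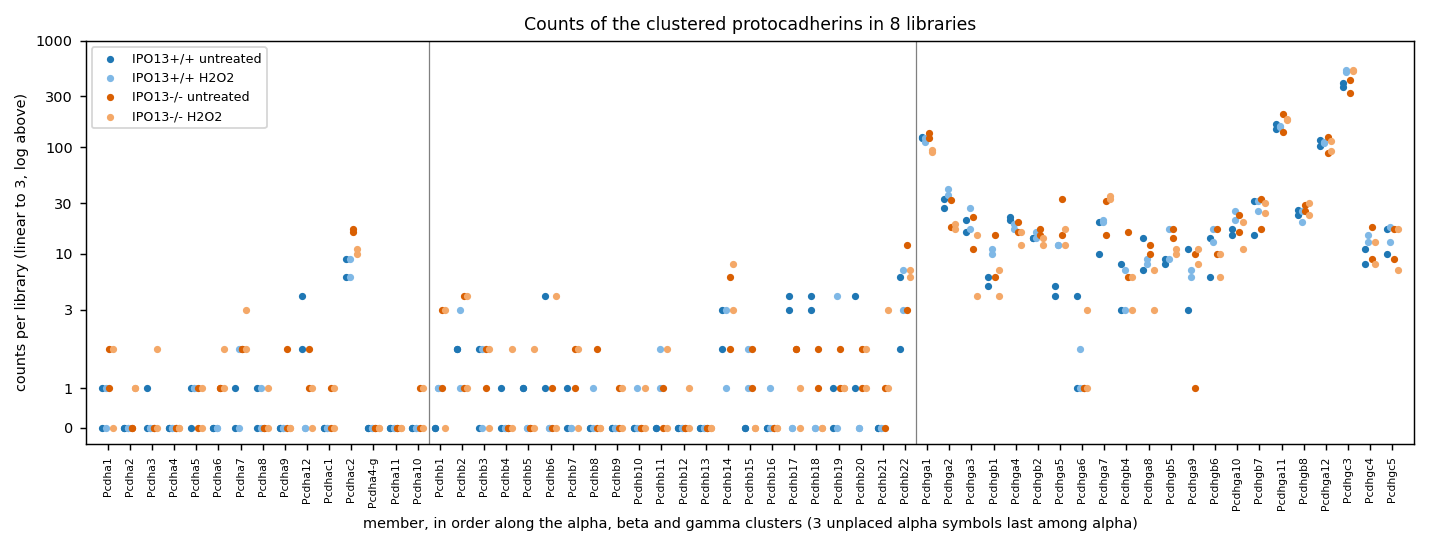
Counts of each of the 59 members in each of the 8 libraries, with the members in their order along the alpha, beta and gamma clusters and the group given by colour. The vertical axis is linear from 0 to 3 and logarithmic above, and nearly all points over 10 counts lie in the gamma cluster on the right, where Pcdhgc3 reaches 535 counts.

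Pcdhgc3, a C-type gene at 37806364 to 37841873, was the most abundant member. In IPO13+/+ cells its counts were 367 and 404 without H2O2 and 526 and 507 with it, and in IPO13-/- cells 432 and 326 without and 535 and 520 with it. It took between 34.3% and 47.6% of the gamma counts of a library. The other C-type genes of the cluster were rare, with 8 to 18 counts per library for Pcdhgc4 and 7 to 18 for Pcdhgc5.

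Pcdhga11 came next, with 149, 164, 157 and 154 counts in the IPO13+/+ libraries, untreated ones first, and 207, 139, 183 and 181 in the IPO13-/- libraries. Pcdhga1, the first gene of the gamma array, had 124, 122, 113 and 122 counts against 136, 123, 95 and 91 in the same order. Pcdhga12, the last A-type gene, had 116, 103, 111 and 109 counts in IPO13+/+ and 125, 88, 114 and 92 in IPO13-/- libraries. Together with Pcdhgc3 these genes held between 71.4% and 80.9% of the gamma counts. The other 18 gamma genes never passed 41 counts in a library, and Pcdhga6 was the rarest with 1 to 4.

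Levels of different genes were compared per length, as CPM per kilobase of the exons a gene does not share, averaged over the 4 group means. On this scale Pcdhgc3 stood at 2.00, Pcdhga11 at 0.94, Pcdhga1 at 0.529 and Pcdhga12 at 0.35, and Pcdhga4 followed at 0.168. The gamma median was 0.0864, against medians of 0.0031 for alpha genes and 0.00287 for beta genes. The highest alpha gene, Pcdhac2, reached 0.0517 and the highest beta gene, Pcdhb22, 0.0137, both below the gamma median.

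Part of the gamma variable exons is overlapped by annotated exons of genes on the opposite strand. Such overlap touched 8 of the 22 gamma genes, among them the 4 most abundant ones. It covered 46.1% of the unshared exonic bases of Pcdhgc3, 52.4% of those of Pcdhga11, 12.5% of those of Pcdhga1 and 9.28% of those of Pcdhga12. The 8 genes with overlap ranged from 0.0516 to 2.00 CPM per kilobase with a median of 0.249, and the 14 without it from 0.01 to 0.168 with a median of 0.0585. Pcdhga10 was covered in full, at 100%, and stood at 0.104. None of the overlapping genes has a row in the count tables, and the strand setting of the counting is not given in the sources used here, so that reads from the 2 strands cannot be told apart.

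**Figure D2:**
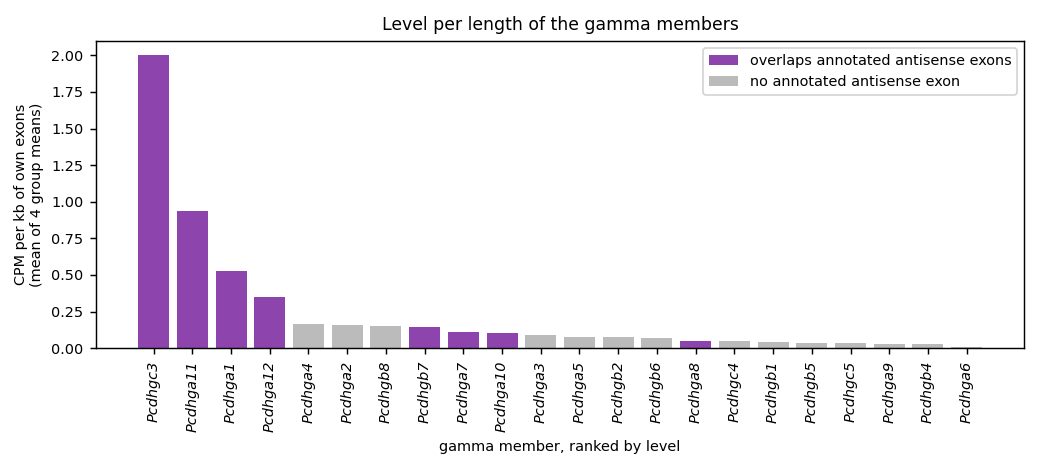
Level of each of the 22 gamma genes, ranked, in CPM per kilobase of unshared exons (mean of the 4 group means), with colour for genes whose unshared exons overlap annotated exons of the opposite strand. The 4 highest bars, from 2.00 for Pcdhgc3 to 0.35 for Pcdhga12, are all of the overlapping kind, and the highest bar without overlap is Pcdhga4 at 0.168.

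Beta genes, the cluster in which counts are least shared between genes, were close to the limit of detection. The sum over all 22 was 26, 22, 13 and 22 counts in the IPO13+/+ libraries, the untreated pair first, and 38, 22, 40 and 19 in the IPO13-/- libraries. These sums correspond to 0.387 and 0.314, 0.191 and 0.318, 0.502 and 0.354, and 0.618 and 0.307 CPM in the same order, and the values of the 4 groups overlap apart from those of the treated IPO13+/+ cells and the untreated IPO13-/- cells. Between 8 and 15 of the 22 beta genes had a count in a given library. Pcdhb22 led with 2, 6, 3 and 7 counts in IPO13+/+ and 12, 3, 7 and 6 in IPO13-/- libraries, followed by Pcdhb14 with 1 to 8 and Pcdhb2 with 1 to 4. No beta gene passed edgeR's adjusted test in any comparison, and the lowest FDR among them was 0.0662 for Pcdhb17 with stress in IPO13+/+ cells. With limma-voom, Pcdhb15, Pcdhb17, Pcdhb18, Pcdhb20 and Pcdhb21 were each called in some comparison.

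In the alpha cluster Pcdhac2, the C-type gene nearest to the constant exons, carried most of the counts. It had 9, 6, 6 and 9 counts in the IPO13+/+ libraries, against 17, 16, 11 and 10 in the IPO13-/- libraries. Every IPO13-/- library was thus above every IPO13+/+ library. The next alpha genes were Pcdha7 with 0 to 3 counts and Pcdha12 with 0 to 4. The sum over the alpha cluster was 18, 8, 9 and 12 counts in IPO13+/+ and 24, 26, 23 and 17 in IPO13-/- libraries, or 0.114 to 0.268 CPM against 0.275 to 0.419 CPM, which do not overlap. Without Pcdhac2 the sums were 9, 2, 3 and 3 against 7, 10, 12 and 7 counts and did overlap. The 95% Poisson interval of the sum of 18 counts ran from 10.7 to 28.4 and that of the 17 counts from 9.90 to 27.2, so that the nearest libraries of the genotypes differ by less than counting error.

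**Figure D3:**
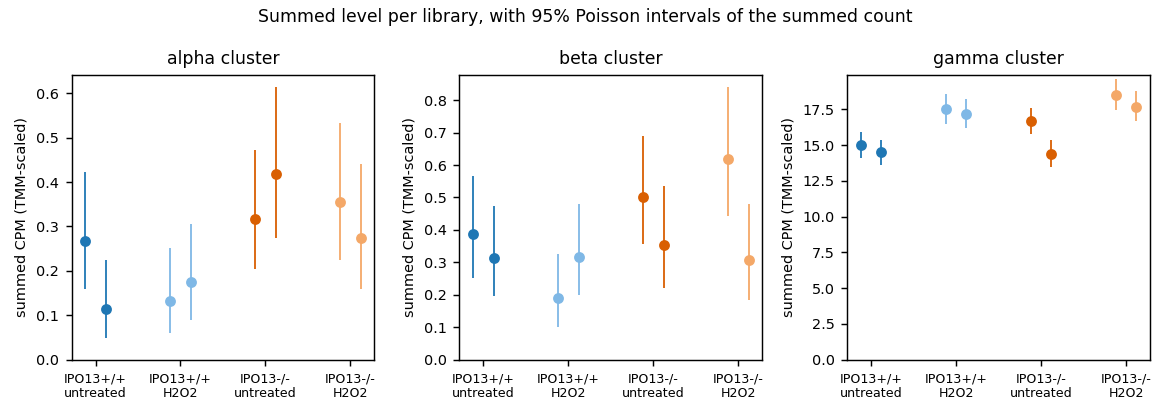
Summed level of the alpha, beta and gamma clusters in each library, in TMM-scaled CPM on axes that start at 0, with bars for the 95% Poisson interval of the summed count. The IPO13-/- libraries lie above the IPO13+/+ libraries in the alpha panel (0.275 to 0.419 against 0.114 to 0.268 CPM), the beta panel shows no such order, and in the gamma panel the treated libraries of each genotype lie above its untreated ones.

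Genotype was compared in untreated cells, in treated cells and averaged over both, to ask which members depend on IPO13. A member is called here when edgeR's quasi-likelihood test gives an FDR below 0.05 and the log2 fold change is 1 or more in size, and is said to rise or fall where the FDR alone is below 0.05. In untreated cells 1 of the 55 tested members was called, against 4.71% of all 19424 genes tested, and no other member passed on FDR alone, against 38.2% of all genes. After stress no member was called, against 4.56% of all genes. An unadjusted p under 0.05 in edgeR was reached by 4 members, against 43.1% of all genes. DESeq2 also called 0 and limma-voom 3. On FDR alone 3 members differed after stress, against 36.6% of all genes. Averaged over treatments 1 member was called, against 5.07%, and 5 passed on FDR alone, against 47.1%. The 20 most abundant members had mean counts from 8 to 452, as did 5615 of the tested genes. Of these genes 39.9% passed on FDR alone in untreated cells, 40.6% after stress and 52.3% on average, against 1, 3 and 5 of the 20 members. The members were taken by 10 counts in each library of some group, and the 5615 genes by mean count, so the filters differ. Pcdhac2, among the 5, reached 10 counts in each library only in IPO13-/- groups.

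Pcdhga5, an A-type gene at 37694380 to 37841873, was the member called. Without treatment it had 4 and 5 counts in IPO13+/+ and 33 and 15 in IPO13-/- cells, and after stress 12 and 12 against 17 and 12. The untreated IPO13+/+ libraries stood apart at 0.0596 and 0.0714 CPM, while the other 6 lay between 0.174 and 0.436 CPM. The level rose from 0.0655 ± 0.00831 to 0.339 ± 0.137 CPM (SD, n = 2) in untreated cells, a log2 fold change of 2.37 (SE 0.47, 95% interval 1.40 to 3.35, FDR = 0.000202). After stress the difference between genotypes was 0.38 on the log2 scale (95% interval -0.49 to 1.26, FDR = 0.552). The nearest libraries of the genotypes both held 12 counts there, which is 0.176 CPM in IPO13+/+ and 0.194 CPM in IPO13-/- cells. The interaction, the test of whether these differences are unequal, gave -1.99 (SE 0.67) with an unadjusted p of 0.00606 in edgeR and an FDR of 0.115. The averaged difference was 1.38 (SE 0.33, FDR = 0.000869).

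Pcdhac2 averaged 0.203 CPM in IPO13-/- and 0.11 CPM in IPO13+/+ cells, a rise of 0.86 on the log2 scale (SE 0.34, FDR = 0.0382). In untreated cells alone the difference was 1.12 with an FDR of 0.0511, and after stress 0.59 with an FDR of 0.405. The averaged FDR of Pcdhac2 was above 0.05 in 6 of the fits that left out 1 library and with DESeq2, where the highest values were 0.123 and 0.158.

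Among other A-type genes, differences ran in both directions. Pcdhga2 had 27, 33, 36 and 41 counts in IPO13+/+ and 32, 18, 17 and 19 in IPO13-/- libraries, and after stress its level was 0.285 against 0.561 CPM, a fall of 0.98 on the log2 scale (SE 0.28, FDR = 0.00679). Pcdhga3 had 21, 16, 17 and 27 counts in IPO13+/+ and 22, 11, 15 and 4 in IPO13-/- libraries. Its difference after stress, -1.09 (SE 0.45), had an FDR of 0.0579, and the treated IPO13-/- pair behind it held 15 and 4 counts. Pcdhga7 went the other way, with 10, 20, 20 and 21 counts in IPO13+/+ and 31, 15, 33 and 35 in IPO13-/- libraries. After stress it stood at 0.538 against 0.299 CPM, a rise of 0.84 on the log2 scale (SE 0.30, FDR = 0.0296), and the averaged rise was 0.72 (FDR = 0.012), with an FDR of 0.0882 in DESeq2.

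Differences by genotype were small among the most abundant gamma genes. Pcdhga11 was higher in IPO13-/- cells by 0.34 on the log2 scale after stress (SE 0.12, FDR = 0.02) and by 0.24 on average (FDR = 0.0173), a difference of 2.88 against 2.27 CPM in treated cells. Pcdhgc3 differed by -0.03 in untreated cells (95% interval -0.20 to 0.13, FDR = 0.805) and by 0.15 after stress (95% interval -0.01 to 0.30, FDR = 0.131). The differences of Pcdhga12 were -0.05 and 0.02, with intervals from -0.34 to 0.24 and from -0.27 to 0.31. Pcdhga1 gave 0.07 and -0.22 (FDR = 0.738 and 0.229). Over all 22 gamma genes the median log2 difference was 0.12 in untreated cells, -0.14 after stress and 0.05 on average, against 0, 0 and -0.00047 over all tested genes.

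**Figure D4:**
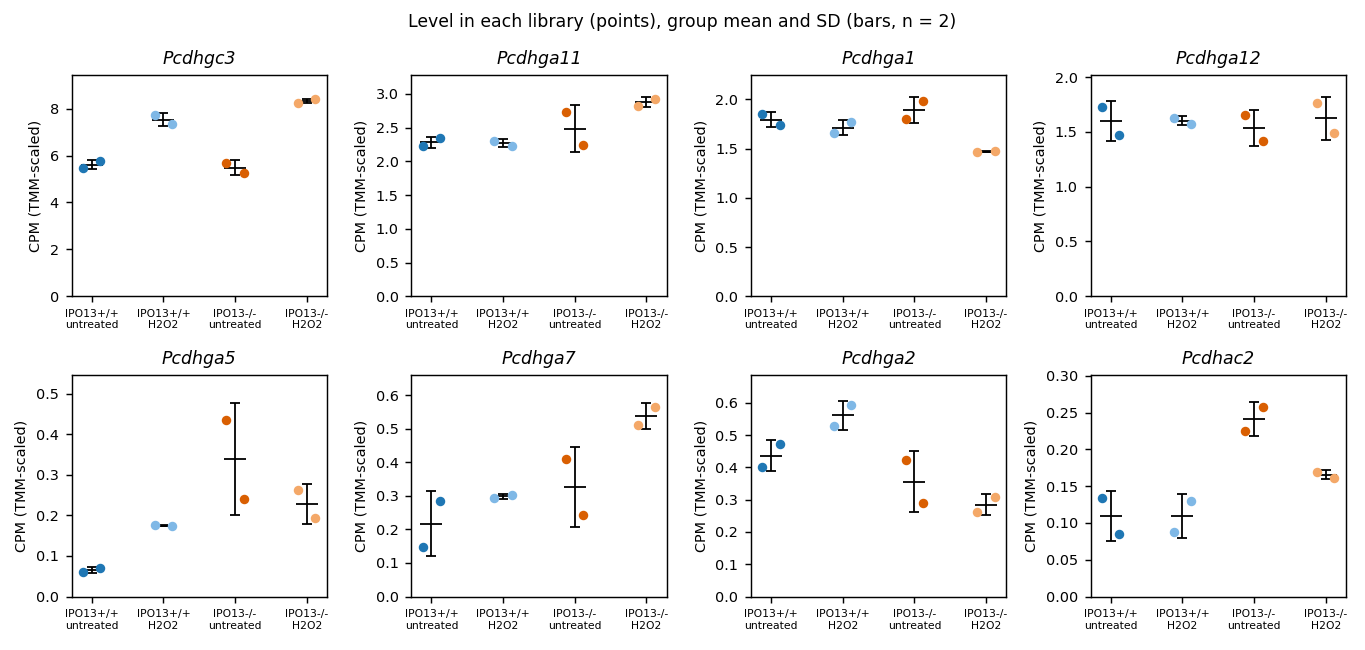
TMM-scaled CPM of 8 members in each library (points), with the mean and SD of each group (bars, n = 2) on axes that start at 0. Pcdhgc3 rises with H2O2 from 5.62 to 7.53 CPM in IPO13+/+ and from 5.48 to 8.33 CPM in IPO13-/- cells, Pcdhga5 is lowest in untreated IPO13+/+ cells at 0.0655 CPM, and all IPO13-/- points of Pcdhac2 lie above its IPO13+/+ points.

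Stress was compared within each genotype, to ask which members respond to H2O2. No member was called in IPO13+/+ cells, against 2.9% of all genes. There 6 members had an unadjusted p under 0.05 in edgeR, against 34.4% of all genes. DESeq2 also called 0 and limma-voom 5. No member was called in IPO13-/- cells either, against 2.89% of all genes, and 0 were called by DESeq2 and by limma-voom. In these cells 3 members had an unadjusted p under 0.05 in edgeR, against 37.4% of all genes. On FDR alone 1 member changed in IPO13+/+ cells, against 25.3% of all genes, and 2 in IPO13-/- cells, against 29.4%. Among the 5615 genes in the count range of the 20 most abundant members, 7.27% were called in IPO13+/+ and 6.89% in IPO13-/- cells. On FDR alone 22.6% and 27.1% of these genes passed, against 1 and 2 of the 20 members.

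Pcdhgc3 rose with stress in both genotypes. The IPO13+/+ cells went from 5.62 ± 0.21 to 7.53 ± 0.28 CPM (SD, n = 2), which is 0.42 on the log2 scale (SE 0.077, 95% interval 0.26 to 0.58, FDR = 0.000136). The IPO13-/- cells went from 5.48 ± 0.321 to 8.33 ± 0.102 CPM, or 0.60 (SE 0.077, 95% interval 0.44 to 0.76, FDR = 6.4e-07). The 4 treated libraries lay between 7.335 and 8.406 CPM and the 4 untreated ones between 5.251 and 5.767 CPM, without overlap. The responses of the genotypes differed by 0.18 (95% interval -0.05 to 0.40, FDR = 0.482). The opposite-strand overlap given above covers 46.1% of the unshared bases of Pcdhgc3, and which strand gave the added reads cannot be told apart.

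No rise with stress passed the test in the other abundant genes. Pcdhga11 and Pcdhga12 changed by -0.01 (95% interval -0.25 to 0.23) and 0.01 (95% interval -0.28 to 0.29) on the log2 scale in IPO13+/+ cells, and by 0.20 and 0.08 in IPO13-/- cells, with FDRs of 0.213 and 0.765 in the latter. Pcdhga1 fell in IPO13-/- cells from 1.89 ± 0.131 to 1.47 ± 0.00275 CPM, by 0.36 on the log2 scale (SE 0.13, FDR = 0.0427), and gave -0.07 in IPO13+/+ cells (FDR = 0.797). Its interaction was -0.29 with an FDR of 0.508, so the responses of the genotypes were not shown to differ. The share of Pcdhgc3 among the gamma counts went from 36.4% and 39.6% to 44.3% and 42.6% in IPO13+/+ cells, and from 34.3% and 36.5% to 44.7% and 47.6% in IPO13-/- cells.

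The sums of the gamma types show where the added counts lay. The 3 C-type genes of IPO13+/+ cells summed to 5.89 and 6.02 CPM before and 8.19 and 7.74 CPM after treatment, and those of IPO13-/- cells to 6.17 and 5.54 against 8.73 and 8.65 CPM. The 12 A-type genes summed to 7.69 and 7.32 against 7.72 and 7.84 CPM, and to 8.61 and 7.30 against 8.15 and 7.63 CPM, where the treated and untreated IPO13-/- libraries overlap. The 7 B-type genes summed to 1.46 and 1.20 against 1.56 and 1.62 CPM in IPO13+/+ cells and to 1.88 and 1.53 against 1.61 and 1.39 CPM in IPO13-/- cells. In IPO13+/+ cells the treated libraries thus lay above the untreated ones for each type, and in IPO13-/- cells for the C-type alone. The A-type margin, 7.72 against 7.69 CPM, lay within counting error (Poisson intervals 481 to 572 and 472 to 563 counts). The B-type intervals of the nearest libraries, 86.8 to 128 and 79.6 to 119 counts, overlapped too. Pcdhgc3 held 3617 of the 3820 C-type counts over all libraries. Pcdhgc4 and Pcdhgc5 changed by 0.55 and 0.20 on the log2 scale in IPO13+/+ and by -0.24 and 0.01 in IPO13-/- cells. No such change passed the test. Over all 22 gamma genes the median log2 change with stress was 0.22 in IPO13+/+ and -0.22 in IPO13-/- cells. Over all tested genes it was -0.0011 and 0, and no gamma gene passed the interaction test.

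Pcdhga5 went from 4 and 5 to 12 and 12 counts with stress in IPO13+/+ cells, 1.39 on the log2 scale (SE 0.56, FDR = 0.0703), and from 33 and 15 to 17 and 12 in IPO13-/- cells, -0.60 (SE 0.36, FDR = 0.248). The first of these comparisons shares its untreated libraries with the genotype comparison in untreated cells, so the same low pair of values enters both. Pcdhga7 gave 0.69 in IPO13-/- cells (FDR = 0.0841) and 0.45 in IPO13+/+ cells (FDR = 0.441).

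Several sparse members were without a count in both treated IPO13+/+ libraries, and 4 of these had an unadjusted p under 0.05 in edgeR. Pcdhb17 went from 4 and 3 counts to 0 and 0, Pcdhb18 from 3 and 4, Pcdhb20 from 4 and 1, and Pcdha12 from 4 and 2. Their FDRs in edgeR were 0.0662, 0.0727, 0.136 and 0.1, while limma-voom called all 4 and a minimum of 10 counts over all libraries led edgeR to call Pcdhb17 and Pcdhb18. No fold change is given, since the untreated pair held 7 counts or fewer. Pcdhb6 likewise went from 4 and 1 counts to 0 and 0, with an FDR of 0.175. In IPO13-/- cells Pcdhb17, Pcdhb18, Pcdhb20 and Pcdha12 had 2 and 2, 1 and 2, 2 and 1, and 1 and 2 counts without treatment and 1 and 0, 0 and 0, 2 and 1, and 1 and 0 after it.

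Whether stress acted differently in the 2 genotypes was tested as an interaction, for which a call needs only an FDR below 0.05. None of the 55 members was called by edgeR, DESeq2 or limma-voom, against 2.71% of all genes in edgeR. An unadjusted p under 0.05 in edgeR was found for 4 members, against 15% of all genes.

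**Figure D5:**
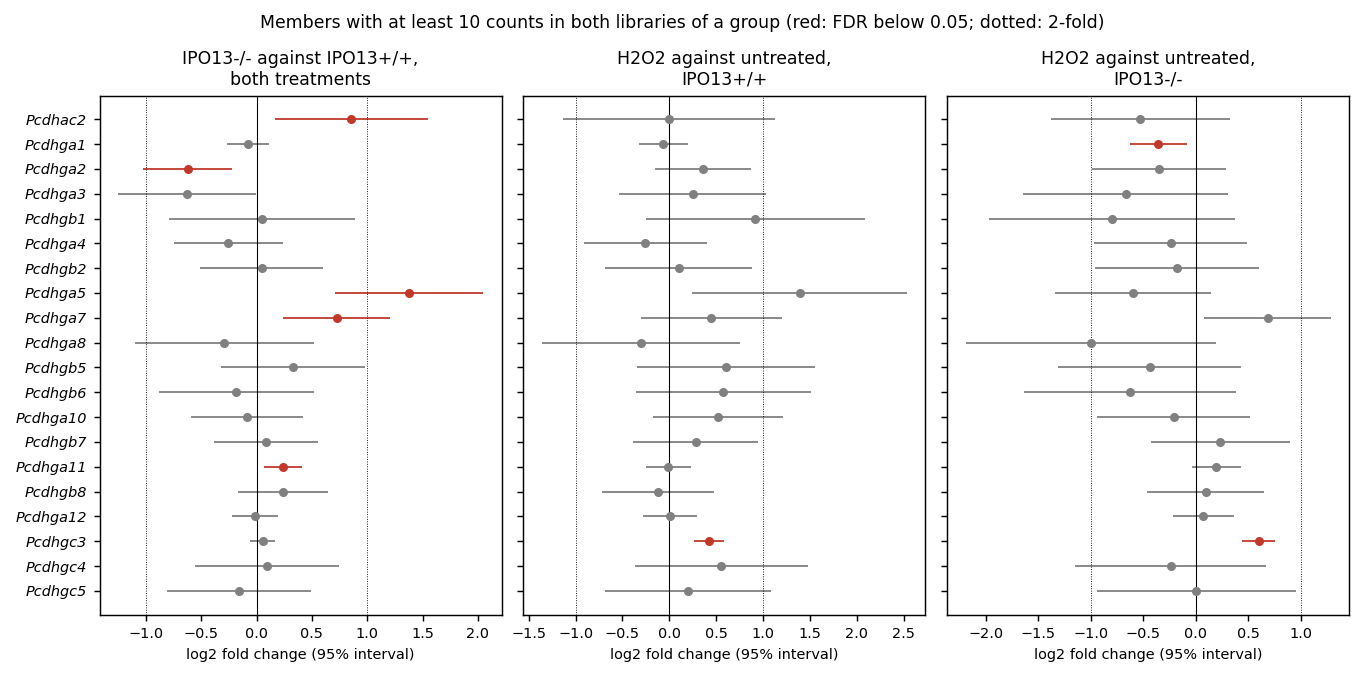
Log2 fold changes with 95% intervals of the 20 members that reach 10 counts in each library of some group, for IPO13-/- against IPO13+/+ averaged over treatments and for H2O2 against untreated cells of each genotype, with dotted lines at a 2-fold change and red for an FDR below 0.05. Pcdhga5 at 1.38 is the single red point past the dotted lines, Pcdhgc3 is red in both H2O2 panels at 0.42 and 0.60, and most other intervals cross 0.

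The remaining abundant members passed in no comparison. Counts are given for the 4 IPO13+/+ libraries and then the 4 IPO13-/- libraries, each time with the untreated pair first. Pcdhgb8, annotated as a polymorphic pseudogene, had 23, 26, 20, 25, 29, 25, 30 and 23 counts. Pcdhgb7 had 31, 15, 31, 25, 33, 17, 30 and 24, and Pcdhga4 had 21, 22, 17, 19, 20, 16, 16 and 12. These 3 genes lay between 12 and 33 counts in every library. Pcdhga10 had 15, 17, 25, 21, 23, 16, 20 and 11 counts, and Pcdhgb2 had 14, 14, 16, 14, 15, 17, 14 and 12. Pcdhgc5 had 17, 10, 18, 13, 17, 9, 17 and 7, and Pcdhgc4 had 11, 8, 13, 15, 18, 9, 13 and 8. Pcdhgb5 had 8, 9, 9, 17, 17, 14, 10 and 11 counts, and Pcdhgb6 had 14, 6, 13, 17, 17, 10, 10 and 6. Replicates of a group differed by up to 10 counts in these 6 genes. Pcdhga8 had 14, 7, 9, 8, 12, 10, 7 and 3 counts, and Pcdhgb1 had 5, 6, 10, 11, 15, 6, 4 and 7, with an interaction of -1.71 at an FDR of 0.307. The 3 rarest gamma genes were Pcdhga9 with 1 to 11 counts, Pcdhgb4 with 3 to 16 and Pcdhga6.

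Genes that act on the clusters were followed as a list of 28, of which 27 were found. None of the 27 was called by edgeR in any comparison. On FDR alone 7 were higher and 9 lower in untreated IPO13-/- cells, where 38.2% of all tested genes and 48.8% of the 15019 more abundant ones passed in either direction. With stress 17 were lower in IPO13+/+ and 15 lower in IPO13-/- cells, with none higher, where 25.3% and 29.4% of all genes and 32.4% and 37.7% of the more abundant ones passed. Neither set of genes was matched in level to this list or to the lists below. The median log2 change of the 27 genes with stress was -0.15 in IPO13+/+ and -0.13 in IPO13-/- cells. Over all tested genes it was -0.0011 and 0, and over the more abundant ones -0.027 and -0.006. Ctcf, whose product binds the promoters and enhancers of the clusters, stood at 245 CPM in untreated IPO13+/+ and 235 CPM in untreated IPO13-/- cells, a difference of -0.06 (FDR = 0.245). Rad21, a cohesin subunit, fell with stress by 0.31 in IPO13+/+ cells (FDR = 5.5e-07) and by 0.21 in IPO13-/- cells (FDR = 0.000125). Smchd1, a chromatin protein that takes part in silencing the clusters, fell with stress by 0.14 in IPO13+/+ (FDR = 0.0227) and by 0.12 in IPO13-/- cells (FDR = 0.0472). Dnmt3b, a de novo DNA methyltransferase, was higher in untreated IPO13-/- cells by 0.15 (FDR = 0.00261) and fell with stress by 0.24 in each genotype. Rest, a repressor of neuronal genes, was lower in IPO13-/- cells, at 132 against 174 CPM without treatment, a fall of 0.40 (SE 0.042, FDR = 1.5e-08).

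The non-clustered protocadherins are single genes outside the clusters, and all 12 listed were tested. Pcdh1 was also on the list of genes flanking the clusters, which is followed below. Pcdh19, a relative linked to neuronal sorting, had 160, 160, 156 and 175 counts in IPO13+/+ and 498, 366, 338 and 277 in IPO13-/- libraries, which do not overlap. It was called higher in untreated IPO13-/- cells, with 6.24 ± 0.481 against 2.33 ± 0.0712 CPM and a log2 fold change of 1.42 (SE 0.10, FDR = 8.5e-12), and after stress, with 1.01 (FDR = 1.5e-08). Pcdh7 was called lower in untreated IPO13-/- cells, from 11 and 8 counts to 2 and 3 (FDR = 0.0393). With stress no member of the list was called in edgeR in either genotype, and 1 was lower on FDR alone in each.

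Partners through which clustered protocadherins signal, such as the kinases that bind the shared cytoplasmic tail and the actin regulators of the WAVE complex, gave 21 genes without a call by edgeR in any comparison. In untreated IPO13-/- cells 7 were higher and 5 lower on FDR alone, against the 38.2% and 48.8% given above for all and for the more abundant genes. The kinases Ptk2 and Ptk2b, which are named here after their values were seen, went in opposite directions by genotype, with 0.19 for Ptk2 (FDR = 0.00065) and -0.52 for Ptk2b (FDR = 1.5e-09) in untreated cells. Ptk2b rose with stress by 0.77 in IPO13+/+ and 0.70 in IPO13-/- cells.

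Among 14 other cadherins and catenins, Cdh13 and Cdh8 were called lower in IPO13-/- cells on average, where 5.07% of all genes were called. On FDR alone 3 of the 14 were higher and 7 lower, against 47.1% of all genes and 59.7% of the more abundant ones in either direction. Cdh13 had 42, 59, 57 and 58 counts in IPO13+/+ and 21, 20, 17 and 15 in IPO13-/- libraries, an averaged log2 difference of -1.51 (SE 0.18, FDR = 6.0e-08). Cdh8 had 23, 18, 22 and 15 against 4, 9, 4 and 7 counts, with -1.63 (SE 0.34, FDR = 0.000255). Cdh5 went from 19 and 14 to 3 and 8 counts with stress in IPO13+/+ cells and was called there (FDR = 0.0187), and after stress it was called higher in IPO13-/- cells, with 15 and 11 counts (FDR = 0.0441).

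The neighbourhood of the clusters on the chromosome was followed through 21 flanking genes. None was called by genotype in edgeR, although 4 were higher and 3 lower on FDR alone in untreated IPO13-/- cells, a share near the 38.2% of all genes, and with stress Cd14 alone was called, from 8 and 9 to 19 and 26 counts in IPO13+/+ cells (log2 fold change 1.39, FDR = 0.0164). The 333 other genes of the chromosome that were abundant enough to compare had median log2 changes between -0.066 and 0.03 over the 6 comparisons, and differed from the genes of other chromosomes by at most 0.039 in size.

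The summed markers of other cell types lay well above the sums of the alpha and beta clusters. The 15 neural markers summed to 174 to 212 CPM, mostly from Tubb3, with 6 of them under 1 CPM in every library. By genotype Pax6 was called higher (1.27 on average, FDR = 2.4e-11) and Sox1 lower (-1.08, FDR = 1.6e-14), while Neurog1 was called higher in untreated (1.04) and Syt1 in treated cells (1.34). Neurod1 was called higher with stress in both genotypes (1.79 and 2.14), Pax6 lower in IPO13-/- cells (-1.26), and Tubb3 in the interaction (0.24, FDR = 0.0236). The 12 fibroblast markers summed to 10.4 to 13.1 CPM, with Fap at 0 in all libraries and 8 under 1 CPM, and Col1a1 (-1.24), Pdgfrb (-1.02) and Twist2 (0 to 2 counts against 4 to 9 counts) were called lower in IPO13-/- cells on average, and Thy1 was called in the interaction (0.47). The 8 primitive endoderm markers summed to 154 to 238 CPM, mostly from Lama1 and Col4a1, with 2 under 1 CPM in every library. None of the 8 was called in edgeR, and 3 were lower on FDR alone in untreated IPO13-/- cells. Of the stem cell markers Esrrb (0.21), Klf2 (0.27), Tbx3 (0.36) and Zfp42 (0.22) were called in the interaction. The part of these cell types in the members' levels was not tested, and fewer cells of a type and less RNA per cell cannot be told apart in bulk RNA.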

How the data were processed

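Per the labels, mRNA libraries were made with an Illumina TruSeq kit, and the submitters' processing notes list bcl2fastq, STAR 2.3.1, HTSeq, limma and the build mm10. The authors deposited raw counts of reads per gene symbol, without normalization, and the same values as CPM, each count divided by the library total. The deposited CPM differed from recomputed CPM by at most 0.0005. The labels and the Methods name different HiSeq models and lane numbers. The gene annotation and the strand setting are not given in the sources used here.

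Groups were taken from the labels. Genes without a count were dropped, and the counts of the other 19424 were fitted with edgeR 4.0.16 (quasi-likelihood, TMM, 1 coefficient per group, all 8 libraries, R 4.3.3), and p-values were adjusted over all genes by the Benjamini-Hochberg method. The common dispersion was 0.00113. Standard errors were derived from the fold change and the F statistic. Called means an FDR below 0.05 and a log2 fold change of at least 1 in size, and for the interaction the FDR alone. Members that reach 10 counts in each library of some group, or are called, are named with every value, further members by range with the 3 highest per cluster, and of the other lists the called genes, at most 6, with Ctcf, Rad21, Smchd1, Dnmt3b and Rest. Members and lists were chosen with earlier results of these data known. Alternatives were limma-voom (limma 3.58.1), DESeq2 1.42.0, other scalings and filters, a replicate block and leaving out each library. The procedure was tested on simulated data for the untreated genotype comparison, with changes placed only in genes above 1 CPM. Most members, Pcdhga5 among them, lie below that level, so the simulation does not cover them. Exon positions came from GENCODE M21, and differences within a replicate pair exceeded sampling noise in each group.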

Additional observations from a re-analysis of the deposited data

How the results depend on the processing

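No change that passed the test reversed its direction. Among those that did not pass, changes of Pcdhgc3, Pcdhga11, Pcdhga12 and Pcdhac2 took the other sign in some fits, such as -0.03 to 0.05 for Pcdhgc3 and -0.05 to 0.03 for Pcdhga12 in untreated cells with library totals, and 0.13 to -0.01 for Pcdhga11 without 1 IPO13-/- library. In untreated cells, where 1 member was called by genotype, limma-voom called 3, and library totals without factors, filterByExpr and a minimum of 10 counts over all libraries each called 2, Pcdhac2 being the added gene in these 3. After stress, where 0 were called, limma-voom called 3, relative log expression factors 1 and the FDR alone 3, and fits without 1 library called 0 to 2, the added genes being Pcdhga3 and Pcdhga2. Averaged over treatments, limma-voom called 4, the FDR alone 5 and fits without 1 library 1 to 2, where 1 was called as reported. With stress in IPO13+/+ cells, limma-voom called 5 (Pcdha12, Pcdhb15, Pcdhb17, Pcdhb18 and Pcdhb20), a minimum of 10 counts 2 (Pcdhb17 and Pcdhb18) and the FDR alone 1, and in IPO13-/- cells the FDR alone gave 2, where 0 were called. The members that limma-voom added had at most 17 counts in any library. Among the 12 non-clustered protocadherins, where 1 was called by genotype on average, limma-voom and the minimum of 10 counts called 2, and fits without 1 library 1 to 3.

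The replicate numbers did not establish a pairing, since the correlation of replicate deviations over 9447 genes ran from -0.079 to 0.6 between groups. With a replicate block the genotype comparison after stress called 1 member, Pcdhga3, in place of 0, and the counts of calls in the other comparisons stayed within 1.5 times.

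Pcdhgc3 kept its rise with stress in every fit without 1 library (0.38 to 0.46 in IPO13+/+ and 0.57 to 0.67 in IPO13-/- cells), with a highest FDR of 0.00775. Pcdhga5 in untreated cells gave 1.87 to 2.70 there, with a highest FDR of 0.025. The smaller changes were less stable. With limma-voom, Pcdhga7 after stress and Pcdhga1 with stress in IPO13-/- cells had FDRs above 0.05. Pcdhga2, Pcdhga7 and Pcdhga11 after stress, and Pcdhga1 with stress in IPO13-/- cells, had FDRs above 0.05 with DESeq2 and in 2, 4, 4 and 6 of the fits without 1 library, up to 0.0708, 0.181, 0.16 and 0.254. The averaged genotype differences of Pcdhga2, Pcdhga7 and Pcdhga11 had FDRs of 0.081, 0.0882 and 0.144 with DESeq2, and the latter 2 rose to 0.179 and 0.141 in fits without 1 library. The causes of these differences were not tested. Most alpha and beta genes lay near the limit of 3 counts per library, and calls among them depended on the tool.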
